A study of Arabidopsis thaliana with 24 samples.

Results

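Transcripts of 5 cell wall genes of Arabidopsis thaliana are described here in the sut2 mutant and in its wild type. The genes are AT4G18180, a pectin lyase-like gene, the endoglucanase genes GH9B8, GH9B12 and GH9B16, and CSLA01, a cellulose synthase-like gene of the mannan synthase family. They are 5 of the 691 genes that had a probe annotated with exactly 1 gene, and each had 1 such probe. The genes were picked for their place in the cell wall with the difference between mutant and wild type already known, so their differences below are a description and carry no test. The groups were 12 columns of the sut2 mutant and 12 columns of wild type (WT), both of the ecotype Wassilevskija, with the columns of each group numbered 1 to 12. The labels describe the mutant as without SUT2, a sucrose transporter or sensor of the plasma membrane; 0 probes named that gene, so its loss was not checked here. No tissue or growth condition is given in the sources used here. Of 24 tissue marker symbols, 0 were matched among the probes with 1 gene. Most of these probes carry only a locus tag (599 of 692), so marker genes may be among them unmatched. Nothing says that the columns came from separate plants, so their spread may be technical.

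The plant cell wall is built of cellulose, which is made of long chains of glucose, set in a matrix of pectins and hemicelluloses. Cellulose is made at the plasma membrane, while pectins and hemicelluloses such as glucomannan are made in the Golgi apparatus and secreted. Sucrose is the main sugar carried between plant organs, and its cleavage supplies the activated sugars from which these polymers are built. The pectin lyase-like proteins share a helical fold that is found in enzymes that cut or modify pectin; the fold alone does not say which reaction a given protein carries out. Enzymes of the GH9 family hydrolyse glucan chains, and members of the family take part in cellulose synthesis and in wall loosening. Proteins of the CSLA group join mannose and glucose into mannan chains.

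The deposited values were intensities scaled to a column mean near 1. The median intensity of a column was 0.256 ± 0.020 in the mutant and 0.372 ± 0.032 in wild type (SD, n = 12 columns each), so mutant columns were dimmer at their centre before normalization. Between 148 and 273 of the 3439 values were listed at 0 in mutant columns, against 146 to 238 in wild type columns. Intensities were therefore raised to a floor (0.00971), put on the log2 scale and quantile-normalized, which gives every column the same distribution. Both scales are given below. Of the 60 values of the 5 genes in each group, 3 were listed at 0 in the mutant and 2 in wild type, all of them of GH9B8 and GH9B12.

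The pectin lyase-like transcript was far lower in the mutant. The glucanase transcripts and the mannan synthase transcript differed by less than the SD between columns of a group. That SD takes no account of the pairing of columns by number. With the replicate number as a block, the CSLA01 change was 0.25 ± 0.091 (SE) and passed as higher. The CSLA01 change did not pass with consecutive numbers averaged, with or without that block. By polymer, the pectin lyase-like gene was 7.02-fold lower in the mutant. Its placing under pectin rests on the type of protein it encodes, and its action on pectin was not tested. Of the 3 glucan genes, GH9B8 and GH9B16 had a negative log2 change and GH9B12 a positive one. The mannan gene CSLA01 had a small positive change. Of the 5 genes, 1 (AT4G18180) passed an adjusted p of 0.05 in the limma fit to all probes, where 34.8% of the 3439 probes passed in either direction, 15.9% as lower and 18.8% as higher.

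**Figure D1:**
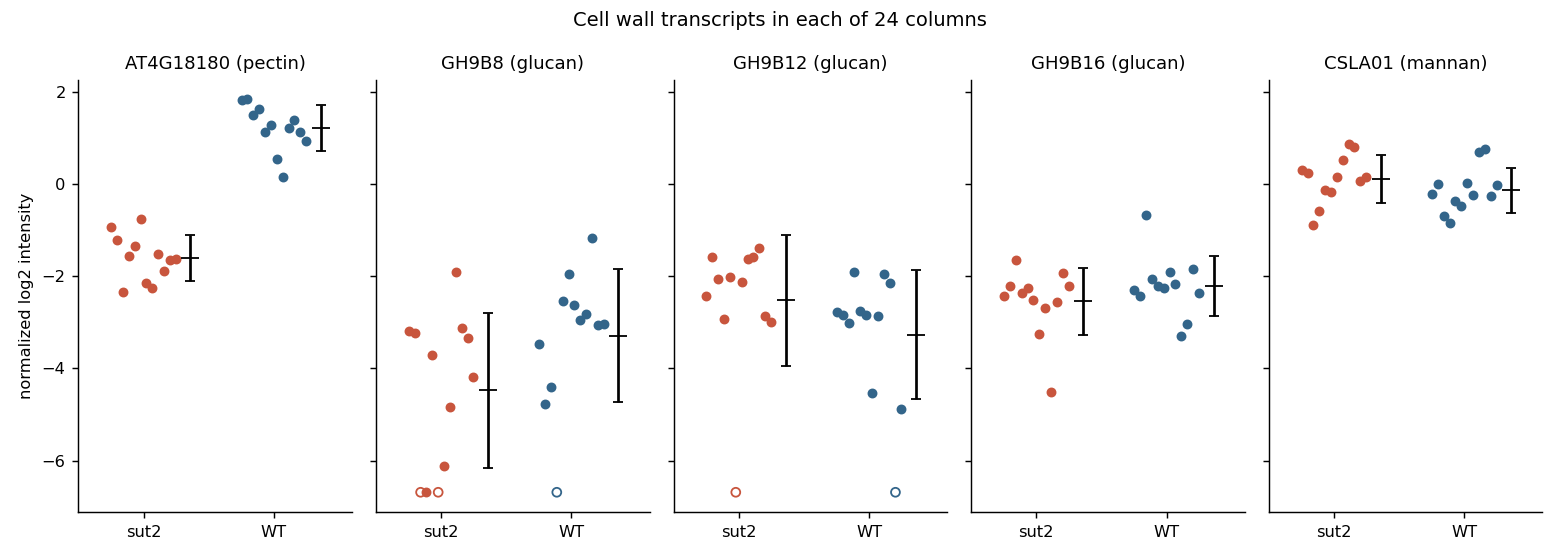
Normalized log2 intensity of the 5 cell wall transcripts in every column, the sut2 mutant left and WT right in each panel, with points ordered by column number. Open circles are values listed at 0 and bars are the mean ± SD (n = 12 columns). The AT4G18180 columns of the mutant all lie below those of WT, while the columns of the other 4 genes overlap.

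AT4G18180 had deposited intensities with a lowest value of 0.161, a median of 0.288 and a highest value of 0.481 in the mutant, against 1.22, 2.38 and 3.40 in wild type. The groups did not overlap: the brightest mutant column was below the dimmest wild type column. They did not overlap after normalization either, where the columns of 71 probes lay apart with the mutant lower, which is 2.06% of all probes. On the normalized log2 scale the level was -1.61 ± 0.50 in the mutant and 1.21 ± 0.50 in wild type (SD, n = 12 columns each). The log2 change was -2.81 ± 0.20 (SE), which ranked 6 from the lowest among 3439 probes and lowest among the 692 probes with 1 gene.

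The lower AT4G18180 signal was found at every number. Taking mutant and wild type columns of the same number together, the difference lay between -3.84 at number 3 and -2.03 at number 6. It was below 0 at all 12 numbers, as it was at 8.29% of all probes. Numbers 1 to 6 gave -2.89 ± 0.25 and numbers 7 to 12 gave -2.74 ± 0.22 (SE, 6 columns per group in each). The level itself was lower in numbers 7 to 12 than in numbers 1 to 6 in both groups, by a log2 difference of -0.49 in the mutant and -0.64 in wild type. The division of the numbers is a feature of the columns seen in earlier results of these data and is not named in the labels.

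**Figure D2:**
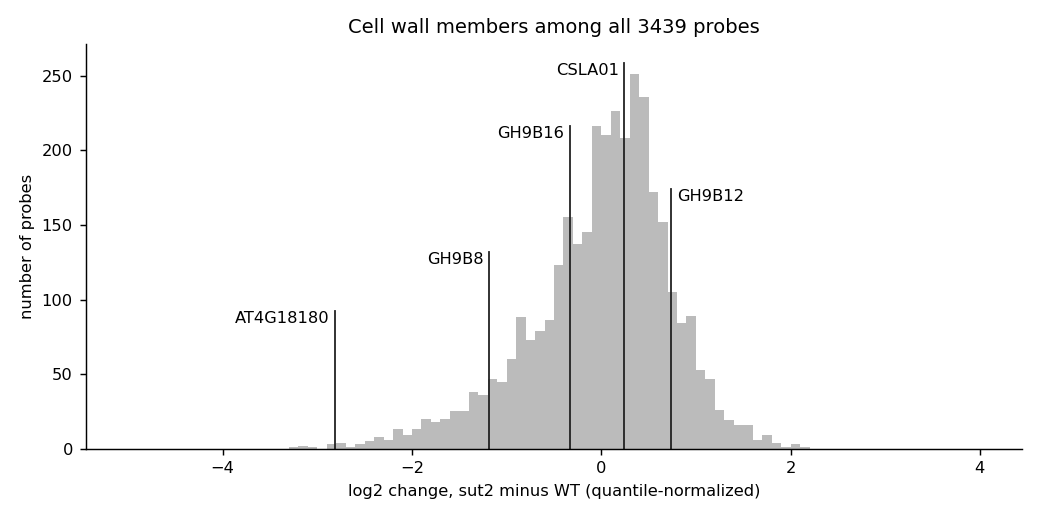
Log2 change of all 3439 probes as a histogram, sut2 minus WT after quantile normalization, with a vertical line at each of the 5 cell wall genes. AT4G18180 lies in the lower tail at -2.81, and the other 4 lie between -1.18 and 0.74; the heights of the lines carry no value.

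GH9B8, GH9B12 and GH9B16 belong to class B of the GH9 family, whose proteins carry a catalytic domain of glucan hydrolysis. Their probes were dim in both groups, and GH9B8 and GH9B12 were among the 25% of probes with the lowest mean level. GH9B16 was above that limit, as did AT4G18180 and CSLA01.

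GH9B8 had intensities of 0 at the lowest, 0.0536 at the median and 0.242 at the highest in the mutant, against 0, 0.146 and 0.497 in wild type. The groups overlapped, with 10 of 12 mutant intensities above the lowest wild type intensity. The values were listed at 0 in 2 mutant columns and in 1 wild type column. On the log2 scale the mutant averaged -4.48 ± 1.68 and wild type -3.29 ± 1.44 (SD, n = 12 columns each), a change of -1.18 ± 0.61 (SE). The normalized value of the mutant was lower at 8 of the 12 numbers and higher at 3, with 1 number at the floor in both groups; the deposited intensity was lower at 9. This spread was wide: the SD within groups was 1.56, against a median of 0.58 over all probes. With the floor at the 5th percentile of positive values the change was -0.68 ± 0.35.

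GH9B12 had nearly the same deposited median in both groups, 0.180 in the mutant and 0.171 in wild type. Its lowest value was 0 in each group, and its highest was 0.349 in the mutant and 0.336 in wild type. The normalized level was -2.53 ± 1.42 in the mutant and -3.27 ± 1.41 in wild type (SD, n = 12 columns each), a log2 change of 0.74 ± 0.55 (SE). Groups overlapped, although 4 normalized mutant values, and 1 deposited intensity, exceeded the highest of wild type. The mutant was higher at 10 of 12 numbers after normalization and at 9 in the deposited intensities.

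A pair of columns listed at 0 moved the GH9B12 value. Without mutant number 6 the change was 1.12, and without wild type number 11 it was 0.43. With both left out as missing it was 0.81 ± 0.33. The sign was not the same in the 2 divisions of the numbers, with a change of -0.26 ± 0.73 in numbers 1 to 6 and 1.74 ± 0.75 in numbers 7 to 12. In numbers 1 to 6 the mutant mean was -2.96 and the wild type mean -2.69, and in numbers 7 to 12 they were -2.10 and -3.84. Each division holds 1 of the columns listed at 0. The difference was -3.84 at number 6 (mutant at 0) and 3.81 at number 11 (wild type at 0). The division means without these columns were not taken. The difference between the divisions, 2.01 ± 1.21 (SE), did not pass (limma interaction term with consecutive numbers averaged, adjusted p = 0.71).

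GH9B16 was never listed at 0. Its intensities ran from 0.0495 through a median of 0.154 to 0.290 in the mutant, against 0.106, 0.247 and 0.732 in wild type. The groups overlapped, with 2 of 12 mutant intensities below every wild type intensity. After normalization the mutant averaged -2.55 ± 0.73 and wild type -2.22 ± 0.64 (SD, n = 12 columns each), a log2 change of -0.34 ± 0.28 (SE). The mutant was lower at 9 of 12 numbers after normalization and at 11 in the deposited intensities. Without mutant number 9 the change was -0.16, and without wild type number 9 it was -0.43.

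The glucanase changes differed in size by how columns were scaled to each other. Without normalization the median probe was lower in the mutant by -0.24 on the log2 scale, against 0.10 after quantile normalization. In the unnormalized values GH9B8 fell by 1.62 ± 0.60 and GH9B16 fell by 0.82 ± 0.27 on the log2 scale (SE), and both then passed the threshold as lower, as 29.5% of all probes did. GH9B12 had a log2 change of 0.31 in the unnormalized values and did not pass.

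One more gene of the lists drawn up for cell wall polymers had a probe of its own, GH9B11, which also encodes a class B endoglucanase. Its change was 0.39 ± 0.33 (SE) and did not pass (limma adjusted p = 0.38, between 0.24 and 0.80 over 11 alternatives, unadjusted p = 0.25). It was -0.22 without normalization. The GH9B11 level was -2.13 ± 0.91 in the mutant and -2.52 ± 0.73 in wild type (SD, n = 12 columns each). GH9B11 and GH9B12 are neighbours in the genome, and GH9B16 neighbours GH9B17, so related copies lie side by side. A further 6 probes carried several gene names with at least 1 of this family among them, and were not used. Of these, 2 named GH9B12 or GH9B16. Probes of such close copies may read more than 1 transcript, and the array annotation does not show whether these do. The lists for pectin, for sugar supply and for wall proteins had 0 genes matched by symbol. Of the 692 probes with 1 gene, 599 carried only a locus tag, so wall genes without a symbol may be among them and were not counted. Wall genes under a symbol that the lists do not hold were not counted either.

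**Figure D3:**
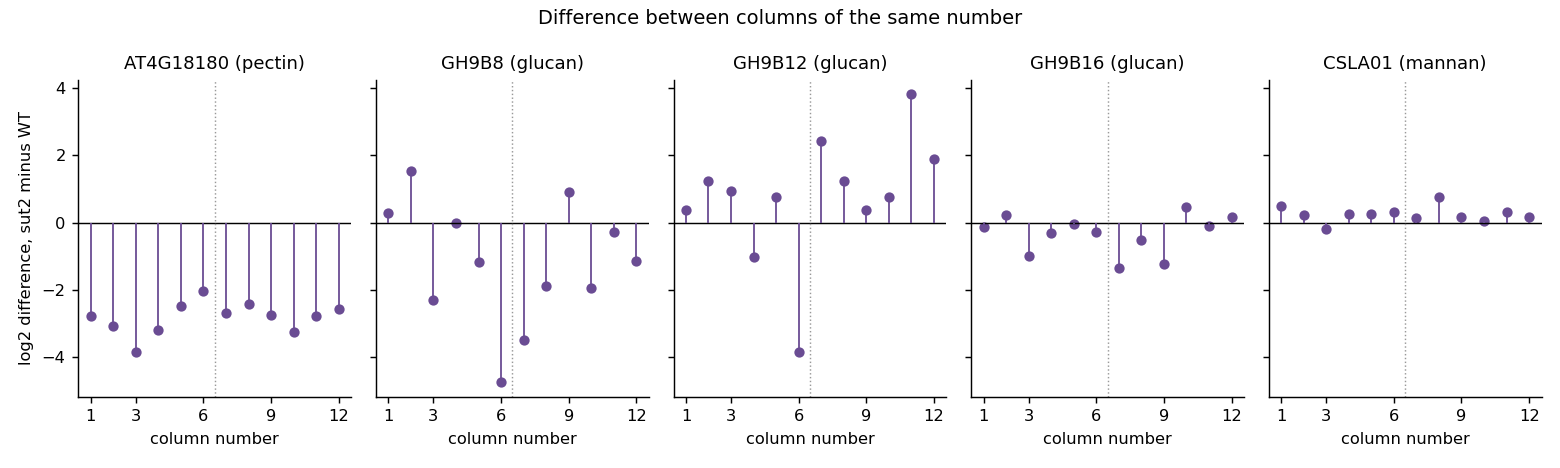
Log2 difference between the sut2 column and the WT column of the same number, for numbers 1 to 12, after quantile normalization. The dotted line separates numbers 1 to 6 from 7 to 12. AT4G18180 is below 0 at every number, CSLA01 is above 0 at 11 of 12, and GH9B8 and GH9B12 vary most.

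CSLA01 had intensities of 0.473, 1.03 and 1.78 in the mutant (lowest, median and highest), against 0.640, 1.02 and 1.67 in wild type. The groups overlapped over nearly their whole range, and the medians were almost equal. On the normalized scale the mutant averaged 0.11 ± 0.51 and wild type -0.14 ± 0.48 (SD, n = 12 columns each), a log2 change of 0.25 ± 0.20 (SE). Mutant columns were higher than the wild type column of the same number at 11 of 12 numbers after normalization, all but number 3, and at 7 of 12 in the deposited intensities.

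With the replicate number as a block the SE of the CSLA01 change was 0.091 in place of 0.20, and CSLA01 passed as higher. In that fit 42.9% of all probes passed in either direction, and 827 of 3439 passed as higher. It did not pass with consecutive numbers averaged, with or without that block. The sign rested on the scaling: the change was -0.037 ± 0.21 without normalization, 0.50 with each column centred on its median and 0.13 with cyclic loess. Numbers 1 to 6 gave 0.23 ± 0.22 and numbers 7 to 12 gave 0.26 ± 0.23. The level was higher in numbers 7 to 12 by 0.63 in the mutant and by 0.60 in wild type.

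**Figure D4:**
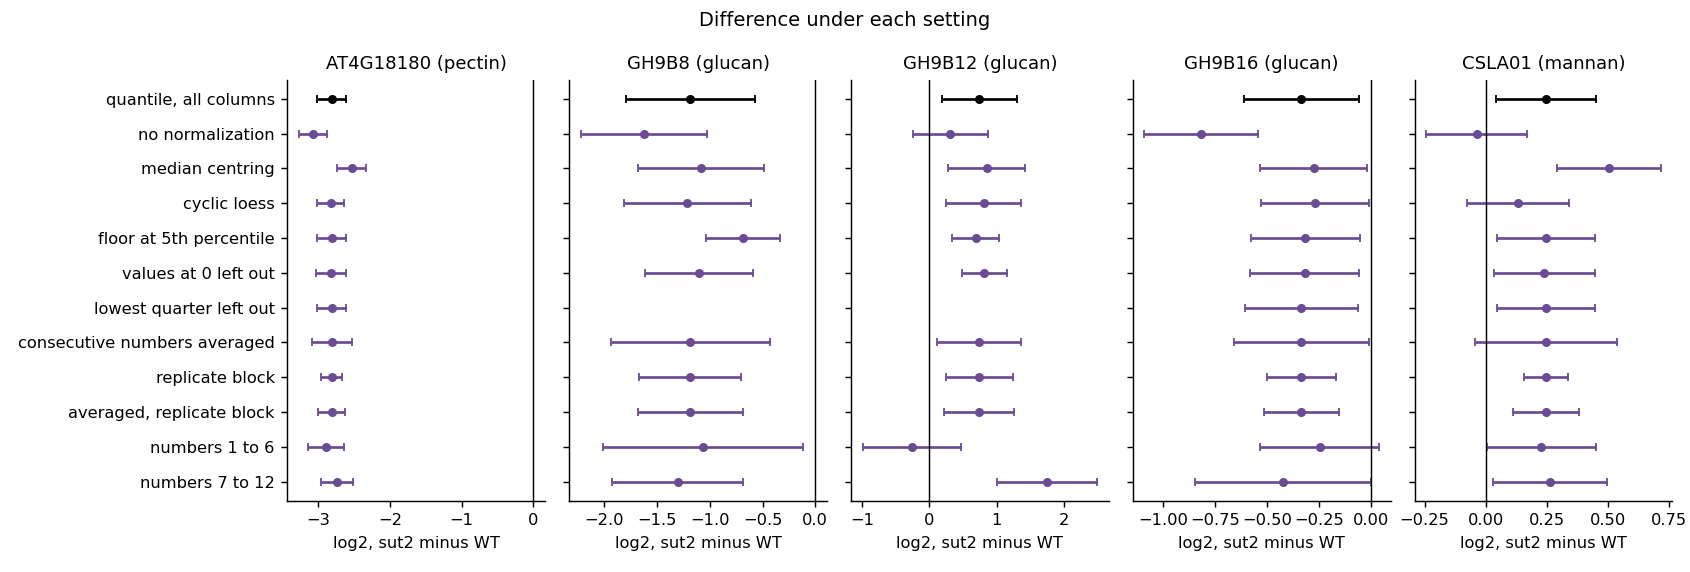
Log2 change (sut2 minus WT) of each gene with its SE under the main setting (black) and 11 alternatives (purple); each panel has its own horizontal scale. GH9B8 and GH9B12 have no value where the dimmest 25% of probes were left out. AT4G18180 stays between -3.07 and -2.53, GH9B12 turns to -0.26 in numbers 1 to 6 and CSLA01 to -0.037 without normalization.

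Within the groups the 5 transcripts did not vary as one. Deviations from the group mean, taken over all 24 columns, correlated positively between GH9B8 and CSLA01 (Pearson r = 0.69) and negatively between GH9B16 and CSLA01 (r = -0.70). For AT4G18180 with the other 4 genes r lay between -0.12 and -0.02. With deviations taken within each division of the numbers, the GH9B8 and CSLA01 value was 0.60 and that of GH9B16 and CSLA01 was -0.62, while AT4G18180 had values of 0.25 with GH9B8, -0.24 with GH9B12, -0.34 with GH9B16 and 0.58 with CSLA01. The columns share numbers, scaling and a division, so these values describe the columns and carry no test. Deviations of GH9B8 and GH9B12 include columns at the floor, and r without those columns was not taken.

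**Figure D5:**
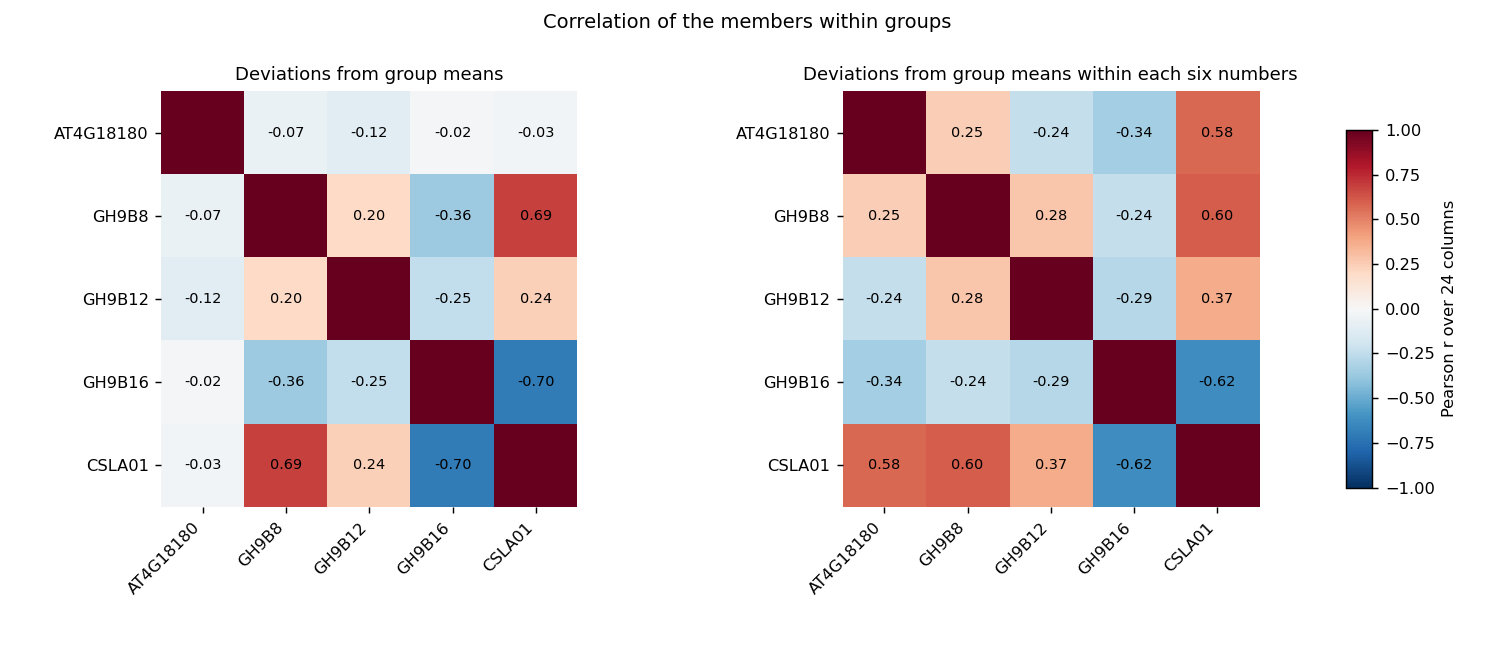
Pearson correlation between the 5 transcripts over 24 columns, from deviations around each group mean (left) and around each group mean within numbers 1 to 6 and 7 to 12 (right). CSLA01 is positive with GH9B8 and negative with GH9B16 in both panels, and its value with AT4G18180 is -0.03 on the left and 0.58 on the right.

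The named transcripts that varied most like each gene within groups were picked by the highest r of deviations among 686 other named probes, over 24 columns. For AT4G18180 these were AT1G32730 (r = 0.82), AT1G51350 (r = 0.77) and AT2G03140 (r = 0.74). None of the 3 was lower in the mutant: their log2 changes were 0.85, 0.52 and 1.07, and AT2G03140 passed as higher (limma adjusted p = 0.00769). These 3 transcripts had changes of the opposite sign to AT4G18180, but AT1G32730 and AT1G51350 did not pass (limma adjusted p = 0.12 and 0.080). With deviations taken within each division of the numbers, their r was 0.81, 0.64 and 0.63. For GH9B8 they were AT1G29070 (r = 0.71), AT2G38070 (r = 0.66) and AT3G03590 (r = 0.66), with log2 changes of -2.77, -0.84 and -0.40. AT1G29070 passed as lower (limma adjusted p = 0.00011).

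GH9B12 was most like AT1G22660 (r = 0.81), AT3G01060 (r = 0.65) and ETFQO (r = 0.65), of which none passed. These r include the GH9B12 columns listed at 0, 1 in each group. Both lay at -6.69, against group means of -2.53 in the mutant and -3.27 in wild type. For GH9B8 the r above include 3 mutant columns and 1 wild type column at or below the floor. Values of r without such columns were not taken. GH9B16 was most like AT4G32340 (r = 0.71), AT4G33540 (r = 0.69) and CHL (r = 0.67), of which none passed; AT4G32340 had a log2 change of 0.49 and an adjusted p of 0.051 (limma). CSLA01 was most like AT1G03810 (r = 0.83), AT2G15440 (r = 0.79) and AT5G48440 (r = 0.79). AT1G03810 passed as higher with a log2 change of 0.78 (limma adjusted p = 0.00166) and AT2G15440 with 0.39 (adjusted p = 0.044), while AT5G48440 at 0.18 did not pass. The 95th percentile of r over all named probes lay between 0.40 and 0.56 for the 5 genes.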

How the data were processed

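The data were 24 array columns of 3439 probes, grouped by their titles. The intensities were deposited on a linear scale with column means near 1; the sources used here give neither the authors' image analysis and scaling nor the dye or array of each column. Values were floored at the 1st percentile of positive values, put on the log2 scale and quantile-normalized. limma (version 3.58.1, R 4.3.3) was fitted to all probes, sut2 minus WT, two-sided, with Benjamini-Hochberg adjustment over 3439 probes and a threshold of 0.05. The fit was tested on simulated data in which the columns were drawn independently. That test therefore could not show how correlation between columns affects the calls. Probes with 1 gene numbered 692, of which 690 matched a TAIR10.1 gene table for current symbols. Gene positions from that table were used only to name neighbouring genes. Probe coordinates were not used, because the probes come with no build.

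The 5 genes and the lists were chosen with earlier results of these data known. Named besides them were the measured list genes and, per gene, the 3 named probes of highest correlation. All 12 same-numbered pairs of columns correlated by over 0.1 in their deviations (0.14 to 0.40, median 0.21). Each mutant column was nearest to its own number among wild type columns, so the numbers pair the columns, which comes from the data. Consecutive columns of a group (1 with 2, 3 with 4 and so on) correlated by 0.12 to 0.55 (median 0.32). The main fit takes all columns as separate. With consecutive numbers averaged, the SE was 0.28 for AT4G18180 and 0.29 for CSLA01, against 0.20 for each in the main fit. The alternatives were other scalings, a higher floor, zeros left out, the dimmest 25% of probes left out, consecutive numbers averaged, the replicate block, numbers 1 to 6 and 7 to 12 alone and each column left out.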

Additional observations from a re-analysis of the deposited data

How the results depend on the processing

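Over 53 values of the 5 genes under other settings than single columns left out, 51 kept their direction and moved by less than 1 SD. The 2 that turned were GH9B12 in numbers 1 to 6 alone (-0.26) and CSLA01 without normalization (-0.037); the cause was not tested. GH9B11 also turned without normalization (-0.22). The 51 include settings that leave the change as in the main fit by construction. These were consecutive numbers averaged, the replicate block, that block with averaged numbers, and the dimmest probes left out. For every gene but AT4G18180 the SD within groups exceeded the size of the change, so the 1 SD limit was wide. GH9B16 stayed within it at -0.82 without normalization, against -0.34 in the main fit, yet passed only there. Leaving out 1 column at a time gave log2 changes from -2.91 to -2.74 for AT4G18180, -1.49 to -0.98 for GH9B8, 0.43 to 1.12 for GH9B12, -0.43 to -0.16 for GH9B16 and 0.18 to 0.34 for CSLA01. The number of probes past the threshold was 1196 in all columns, 449 with consecutive numbers averaged, 759 with these averages in a replicate block, 663 in numbers 1 to 6 alone and 1099 in numbers 7 to 12 alone; the cause of the lower counts was not tested. With the replicate block alone it was 1477, and the block changed the call of CSLA01 (0.25 in both fits) and of no other of the 5 genes. The share of calls that were higher was 54.2% after quantile normalization, 14.6% without normalization, 67.5% with median centring, 41.2% with consecutive numbers averaged, 46.0% in numbers 1 to 6 and 52.0% in numbers 7 to 12. AT4G18180 passed in all 11 alternatives other than single columns left out, where calls were not made. It was picked with this difference known, so these calls add no test. The probes past the threshold in those alternatives numbered from 449 with consecutive numbers averaged to 1559 with median centring. No measure of background was used, so for GH9B8 and GH9B12, which lie near the floor in some columns, a low value cannot be told from background.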
